A study of Mus musculus with 12 samples.

Results

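The plasminogen activators, the urokinase receptor, 2 serpins, tissue factor and the proteins that restrain coagulation at the cell surface were followed in the mouse fibroblast line 3T3 after exposure to extracellular vesicles (EVs) of cancer cells. The members were the 9 listed symbols Plat, Plau, Plaur, Serpine2, Serpinf1, F3, Tfpi, Tfpi2 and Thbd, taken by name from a table of 32544 gene symbols. All 9 were in the table, and 8 of them were among the 14279 genes that passed the filter on low counts. Tfpi2 did not pass.

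Bulk RNA was sequenced in 4 groups of 3 libraries. One group of 3T3 cells was left untreated. The others received EVs, membrane-bound particles shed by cells, for 24 h. The donors of all EVs were MDA-MB-468 cells, derived from a human breast cancer, either control cells (shCon), cells with CRIPTO knocked down (shCr) or cells overexpressing it (CrOE). CRIPTO acts at the cell surface as a co-receptor for Nodal. The EV dose, any vehicle given to the untreated cells, and whether each donor line was a single clone are not given in the sources used here. The 3 libraries called CrOE are headed in the table with the name of the protein alone, and elimination alone ties them to the CrOE samples. Whether the libraries of a group came from separate cultures is likewise not given, so p-values measure the spread between these libraries, which may be technical.

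The plasminogen system is the main extracellular proteolytic cascade at the surface of fibroblasts. Tissue-type plasminogen activator (Plat) and urokinase (Plau) cut the zymogen plasminogen into plasmin, a broad protease that dissolves fibrin and degrades matrix, and the urokinase receptor (Plaur) holds urokinase at the membrane. Serpins such as protease nexin-1 (Serpine2) trap these enzymes. Tissue factor (F3) starts coagulation by binding factor VII, tissue factor pathway inhibitor (Tfpi) blocks that complex, and thrombomodulin (Thbd) turns thrombin towards activating protein C. Fibroblasts around vessels carry tissue factor as part of a haemostatic envelope.

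Library totals ran from 25960054 to 37774020 estimated counts, and levels are given as CPM, counts scaled to a fixed total per library, after TMM scaling. Of 9 fibroblast markers, 8 had counts in every library. The exception, Lum, had 1 count in 1 of the 3 CrOE libraries and none in the others, against a mean of 3.82 CPM in untreated cells. The summed level of the 9 was 15225 to 16212 CPM in untreated libraries, 17313 to 17484 with shCon EVs, 11857 to 13534 with shCr EVs and 4763 to 4951 with CrOE EVs. Single markers were lower with CrOE EVs by unlike amounts, from 2.21-fold for Col1a2 to 10.8-fold for Dcn, Lum apart. Of 6 epithelial markers, Epcam had 0 counts in every group, and the sum stayed between 0.930 and 2.12 CPM in all libraries. The sum of 6 endothelial markers was 2.21 to 3.15 CPM in untreated libraries and 5.48 to 6.20 with shCon EVs. It was 4.23 to 5.57 CPM with shCr EVs and 17.4 to 20.2 with CrOE EVs. Most of the latter was Vwf. Kdr averaged 0.136 CPM in untreated cells and 0.559, 0.764 and 0.403 with shCon, shCr and CrOE EVs. From untreated cells to CrOE EVs, Tek went from 0.223 to 1.18 CPM. Pecam1 went from 0.286 to 0.648 ± 0.0782 CPM (SD, n = 3) and Cdh5 from 0.0616 to 0.187 ± 0.0403. Emcn went from 0.0493 CPM to 0. The sum of 6 leukocyte markers was 48.9 to 59.5 CPM in untreated libraries, 82.1 to 92.8 with shCon EVs, 129.5 to 193 with shCr EVs and 4.71 to 6.34 with CrOE EVs. Most of it in the first 3 of these groups was Lyz2. In the same order of groups, Cd68 averaged 5.64, 5.60, 5.56 and 3.05 CPM, and Csf1r 2.43, 2.11, 2.20 and 1.00. Itgam stayed at or below 0.332 CPM on average and Ptprc at or below 0.130. Adgre1 had 0 counts in untreated and CrOE EV libraries. The fibroblast, endothelial and leukocyte sums moved with the groups, and their part in the changes of the members was not tested.

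All 8 tested members differed among the 4 groups by edgeR's quasi-likelihood F-test with Benjamini-Hochberg adjustment, where 81.3% of all tested genes did. For 7 of the 8, the largest change against untreated cells came with CrOE EVs, and Serpinf1 changed most with shCon EVs. With CrOE EVs, Plat, Plau, Serpine2 and Thbd fell by more than 4-fold against untreated cells, Tfpi and F3 fell by less, and Plaur and Serpinf1 rose. Serpinf1 with shCon EVs apart, shCon and shCr EVs gave smaller changes, and between these 2 all 8 members were called, in both directions, where 8.73% of all tested genes were. That count fell to between 4 and 5 without any 1 of the shCon libraries and to 5 when the 2 groups were fitted alone, and Plat, Serpinf1 and Thbd were called in every setting tried. In bulk RNA, fewer cells of a type and less RNA per cell cannot be told apart.

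**Figure D1:**
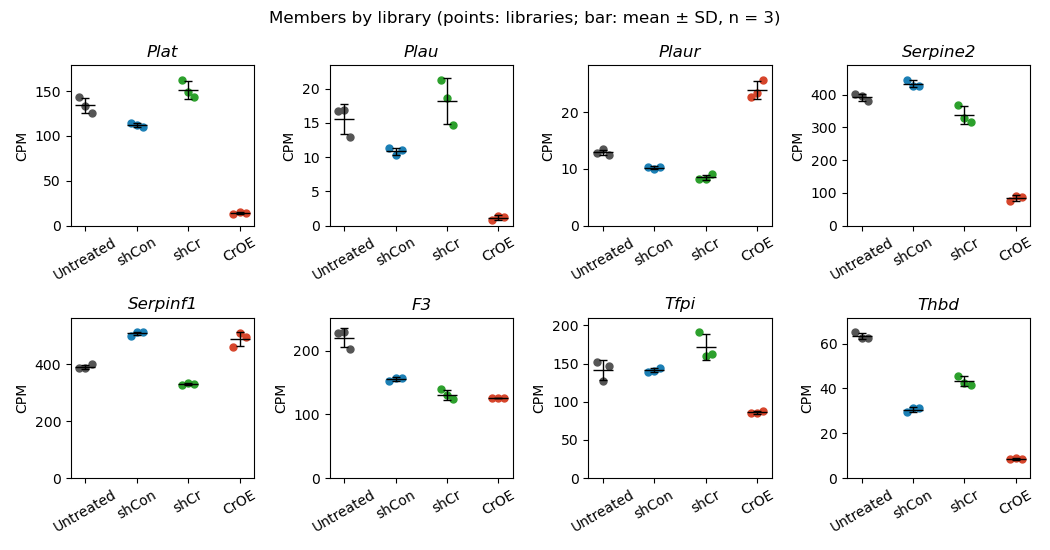
Levels of the 8 tested members in CPM on linear axes that start at 0, with 1 point per library and the mean ± SD of 3 libraries per group. Plat, Plau, Serpine2 and Thbd sit lowest in the CrOE libraries, and Plaur sits highest there.

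The upstream sequences of 4 members are shown because they part ways with CrOE EVs: Plaur and Serpinf1 rose, and Serpine2 and F3 fell. Sequences of Tfpi, which also fell, are not shown. RefSeq promoter entries (build GRCm38.p6) matched 6 of the 9 members. Each line gives the 250 bases before an annotated start, 5′ to 3′ on the strand of the gene. Capitals mark matches on either strand to AP-1 (TGANTCA), the GC box (GGGCGG), EGR1 (GCGNGGGCG) or the TATA box (TATAAA). EGR1 and GC box matches overlap in Plaur and Serpine2. The intervals are chr7:24462233-24462482 (plus strand) for Plaur, chr3:121723287-121723536 (plus) for F3, chr1:79858666-79858915 (minus) for Serpine2 and chr11:75422624-75422873 (minus) for Serpinf1.
Plaur: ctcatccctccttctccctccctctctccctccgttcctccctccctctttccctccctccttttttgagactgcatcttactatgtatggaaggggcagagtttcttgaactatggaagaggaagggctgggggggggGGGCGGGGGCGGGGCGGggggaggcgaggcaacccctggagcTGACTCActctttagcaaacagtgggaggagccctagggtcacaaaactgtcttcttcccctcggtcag
F3: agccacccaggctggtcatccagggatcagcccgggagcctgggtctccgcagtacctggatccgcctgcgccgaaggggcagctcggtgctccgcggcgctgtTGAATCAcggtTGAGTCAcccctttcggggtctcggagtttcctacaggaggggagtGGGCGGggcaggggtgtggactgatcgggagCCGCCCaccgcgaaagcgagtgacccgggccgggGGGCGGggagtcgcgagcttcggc
Serpine2: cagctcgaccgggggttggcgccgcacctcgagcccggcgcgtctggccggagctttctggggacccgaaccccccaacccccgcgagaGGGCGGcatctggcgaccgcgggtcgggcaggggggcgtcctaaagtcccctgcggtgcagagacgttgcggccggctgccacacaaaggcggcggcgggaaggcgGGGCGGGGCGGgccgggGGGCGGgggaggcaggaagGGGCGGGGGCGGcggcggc
Serpinf1: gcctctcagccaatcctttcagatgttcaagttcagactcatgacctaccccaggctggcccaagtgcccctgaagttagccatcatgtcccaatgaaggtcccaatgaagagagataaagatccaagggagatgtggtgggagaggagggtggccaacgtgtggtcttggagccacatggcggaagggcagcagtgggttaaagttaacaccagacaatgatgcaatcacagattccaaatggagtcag

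Plaur held 1 AP-1 match, starting 69 bases before the annotated start, with 3 GC boxes and 1 EGR1 match between 111 and 100 bases before it. F3 held 2 AP-1 matches, 146 and 135 bases before the start, and 3 GC boxes. Serpine2 held 6 GC boxes and 1 EGR1 match in a window of 78.8% G and C. Serpinf1 held none of the 4 motifs, in a window of 51.6% G and C. The 2 entries of Tfpi, not shown, held 1 GC box each, in windows of 52.8% and 48.4% G and C. The latter window also held 1 TATA box. Tfpi2, which had 0 counts in all 12 libraries, also had entries, not shown. Its entry at chr6:3968376-3968625 held 1 AP-1, 1 EGR1 and 2 GC box matches, and its others held none of the 4 motifs. Among all 32851 promoter entries cut to the same 250 bases, 6.75% held AP-1, 32.7% a GC box, 4.7% EGR1 and 12.4% a TATA box. These matches are descriptions of the letters in the window, and their part in the changes of the members was not tested.

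Plat encodes tissue-type plasminogen activator, a secreted protease best known for clearing fibrin. It was at 143, 133 and 126 CPM in untreated libraries, 115, 112 and 110 with shCon EVs, 162, 149 and 143 with shCr EVs and 12.4, 14.7 and 14.2 with CrOE EVs. The CrOE libraries lay far below all others, the shCon libraries lay just below the untreated ones, and the shCr libraries lay just above them. Against untreated cells Plat fell by 3.28 on the log2 scale with CrOE EVs (SE 0.078, adjusted p = 1.16e-12, edgeR), which is 9.72-fold. It fell by 0.26 with shCon EVs (SE 0.069, adjusted p = 0.0108). With shCr EVs its log2 fold change of 0.18 was no call (95% interval 0.027 to 0.33, adjusted p = 0.0615). This value was a call with DESeq2 (adjusted p = 0.048), and by edgeR without shCr EV replicate 3 (0.0452) or CrOE EV replicate 1 (0.0466). With shCr against shCon EVs, Plat was higher, with a log2 fold change of 0.43 (SE 0.069, adjusted p = 0.00186).

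Plau encodes urokinase, the activator that works at the cell surface and in cell migration. Per length of the longest protein-coding transcript it was the least abundant tested member in untreated, shCon and CrOE libraries. By mean CPM, Plaur lay below Plau in untreated cells (12.9 against 15.6) and with shCon EVs (10.2 against 10.9). The rank of Plau in these groups thus depends on the length. Levels of Plau were 16.8, 16.9 and 13.02 CPM in untreated libraries, 11.3, 10.3 and 11.02 with shCon EVs, 21.3, 18.6 and 14.7 with shCr EVs and 0.825, 1.45 and 1.29 with CrOE EVs. The untreated and shCr libraries overlapped, the shCon libraries lay below both, and the CrOE libraries rested on 26 to 50 counts each. Plau fell by 3.69 on the log2 scale with CrOE EVs (SE 0.20, adjusted p = 1.94e-09, edgeR), the largest fall among the members in that comparison at 12.9-fold. Its fall by 0.52 with shCon EVs (SE 0.15, adjusted p = 0.0182) was lost without untreated replicate 1 (0.0642), untreated replicate 2 (0.057) or shCon EV replicate 2 (0.0691). With shCr EVs the log2 fold change was 0.22 and no call (95% interval -0.11 to 0.55). With shCr against shCon EVs, Plau was 1.67-fold higher (log2 fold change 0.74, SE 0.15, adjusted p = 0.00971), a call that was lost without shCon EV replicate 2 (0.0553).

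Plaur encodes the receptor that anchors urokinase, and it rose with CrOE EVs where Plau fell. Its levels were 12.8, 13.5 and 12.5 CPM in untreated libraries, 10.4, 9.96 and 10.4 with shCon EVs, 8.18, 8.27 and 9.09 with shCr EVs and 22.7, 23.4 and 25.7 with CrOE EVs. The CrOE libraries were the highest and the shCr libraries the lowest, with no overlap between any 2 groups. Plaur rose 1.85-fold with CrOE EVs (log2 fold change 0.89, SE 0.071, adjusted p = 1.2e-07, edgeR). It fell by 0.33 on the log2 scale with shCon EVs (SE 0.075, adjusted p = 0.00355) and by 0.60 with shCr EVs (SE 0.075, adjusted p = 4.27e-05). Against shCon EVs it was 2.34-fold higher with CrOE EVs, and against shCr EVs 2.81-fold higher. The difference between shCr and shCon EVs was at the threshold (log2 fold change -0.27, SE 0.076, adjusted p = 0.0488). It was no call with DESeq2 (0.0557), without a low-count filter (0.109) and when these 2 groups were fitted alone (0.12). Leaving out 1 library ended the call for 10 of the 12 libraries, all but untreated replicate 2 and shCr EV replicate 3.

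Serpine2 encodes protease nexin-1, an inhibitor of thrombin, urokinase and tissue-type plasminogen activator that fibroblasts secrete. Its levels were 401, 397 and 381 CPM in untreated libraries, 445, 427 and 428 with shCon EVs, 369, 329 and 317 with shCr EVs and 74.2, 92.0 and 88.6 with CrOE EVs. The order shCon, untreated, shCr and CrOE held with no overlap between any 2 groups. Serpine2 fell 4.62-fold with CrOE EVs (log2 fold change -2.21, SE 0.081, adjusted p = 5.23e-11, edgeR). With shCon EVs its log2 fold change of 0.14 was no call (95% interval -0.026 to 0.31, adjusted p = 0.17), except when these 2 groups were fitted alone (0.0214). It fell by 0.22 on the log2 scale with shCr EVs (SE 0.077, adjusted p = 0.0437). That call was lost when these 2 groups were fitted alone (0.0594). Leaving out 1 library ended it for 9 of the 12 libraries, all but shCr EV replicate 1 and CrOE EV replicates 1 and 2, with adjusted p up to 0.148 without shCr EV replicate 3. With shCr against shCon EVs, Serpine2 was lower, with a log2 fold change of -0.36 (SE 0.077, adjusted p = 0.0124), a call that was lost without shCon EV replicate 1 (0.0526).

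Serpinf1 encodes pigment epithelium-derived factor, a serpin that does not inhibit proteases and is known for blocking vessel growth, so it is no plasminogen activator inhibitor despite its family. It was at 386, 388 and 399 CPM in untreated libraries, 500.1, 511 and 511 with shCon EVs, 326, 334 and 330 with shCr EVs and 459, 509 and 494 with CrOE EVs. The shCon and CrOE libraries overlapped above the untreated ones, and the shCr libraries lay below them. Serpinf1 rose by 0.38 on the log2 scale with shCon EVs (SE 0.048, adjusted p = 5.04e-05, edgeR) and by 0.32 with CrOE EVs (SE 0.048, adjusted p = 4.61e-05). It fell by 0.24 with shCr EVs (SE 0.048, adjusted p = 0.0014). CrOE and shCon EVs did not differ by the test (log2 fold change -0.058, 95% interval -0.16 to 0.046, adjusted p = 0.292), except when these 2 groups were fitted alone (0.0367). With shCr against shCon EVs, Serpinf1 was 1.54-fold lower (log2 fold change -0.62, SE 0.048, adjusted p = 9.7e-06).

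F3 encodes tissue factor, the transmembrane receptor of factor VII. It was at 228, 229 and 203 CPM in untreated libraries, 152, 157 and 157 with shCon EVs, 139, 130 and 124 with shCr EVs and 126, 126 and 125 with CrOE EVs. Every EV library lay below every untreated library, and the shCr and CrOE libraries overlapped. F3 fell by 0.50 on the log2 scale with shCon EVs, by 0.75 with shCr EVs and by 0.81 with CrOE EVs (SE 0.058 each, adjusted p = 2.62e-05, 7.35e-07 and 4.3e-08, edgeR). These 3 comparisons share the untreated libraries. CrOE and shCr EVs did not differ by the test (log2 fold change -0.061, 95% interval -0.19 to 0.066, adjusted p = 0.362). F3 was lower with shCr than with shCon EVs (log2 fold change -0.25, SE 0.058, adjusted p = 0.0205), a call that was lost without shCon EV replicate 2 (0.0872), shCon EV replicate 3 (0.0791), shCr EV replicate 2 (0.0592) or shCr EV replicate 3 (0.0652), and when these 2 groups were fitted alone (0.0563).

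Tfpi encodes the inhibitor of tissue factor and factor VII. Its levels were 152, 127 and 147 CPM in untreated libraries, 139, 141 and 144 with shCon EVs, 191, 160.5 and 163 with shCr EVs and 85.7, 84.8 and 88.5 with CrOE EVs. The shCon libraries lay within the range of the untreated ones, the shCr libraries above it and the CrOE libraries below it. Tfpi fell by 0.72 on the log2 scale with CrOE EVs (SE 0.077, adjusted p = 2.21e-06, edgeR), and it rose by 0.27 with shCr EVs (SE 0.076, adjusted p = 0.0134). The rise with shCr EVs was lost when these 2 groups were fitted alone (0.075). With shCon EVs the log2 fold change was -0.0041 (95% interval -0.17 to 0.16, adjusted p = 0.976). With shCr against shCon EVs, Tfpi was higher, with a log2 fold change of 0.28 (SE 0.076, adjusted p = 0.0426). This call was lost when these 2 groups were fitted alone (0.0899). Leaving out 1 library ended it for 8 of the 12 libraries, all but untreated replicates 1 and 2 and shCr EV replicates 2 and 3, with adjusted p up to 0.142 without shCon EV replicate 1. Tfpi2, the related inhibitor of plasmin and other proteases, had 0 counts in all 12 libraries, where 3 counts correspond to 0.0795 to 0.114 CPM, and no difference in it was detectable at this depth.

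Thbd encodes thrombomodulin, the thrombin receptor that switches thrombin from clotting to activation of protein C. Its levels were 65.0, 62.4 and 62.6 CPM in untreated libraries, 29.4, 31.2 and 31.2 with shCon EVs, 45.6, 42.4 and 41.4 with shCr EVs and 8.47, 8.93 and 8.34 with CrOE EVs. No 2 groups overlapped, and the order was untreated, shCr, shCon and CrOE. Thbd fell 2.07-fold with shCon EVs (log2 fold change -1.05, SE 0.055, adjusted p = 3.08e-08, edgeR), 1.47-fold with shCr EVs (-0.55, SE 0.054, adjusted p = 5.32e-06) and 7.38-fold with CrOE EVs (-2.88, SE 0.061, adjusted p = 4.98e-13). With shCr against shCon EVs, Thbd was 1.41-fold higher (log2 fold change 0.49, SE 0.055, adjusted p = 0.000154). It was the only member that fell at least 2-fold with shCon EVs, where 6.04% of all tested genes changed by that much in either direction.

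**Figure D2:**
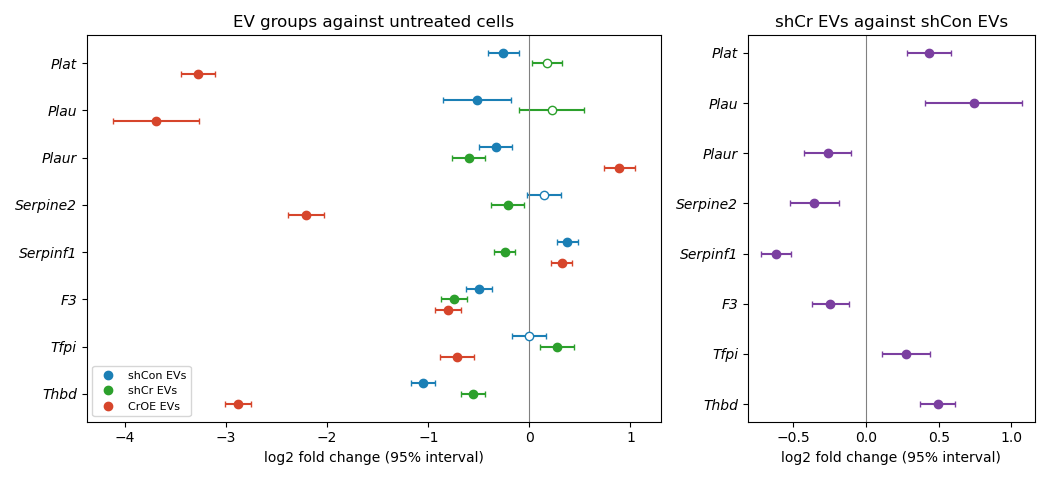
Log2 fold changes of the 8 tested members with 95% intervals, for each EV group against untreated cells (left) and for shCr against shCon EVs (right, on its own scale). Filled points passed an adjusted p of 0.05 and open points did not. Plat, Plau, Serpine2 and Thbd lie between -3.69 and -2.21 with CrOE EVs.

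The comparisons with untreated cells ask what each kind of EV changed. With shCon EVs, 6 of the 8 tested members were called, where 38.1% of all tested genes were called. Of these, 1 was higher, against 18.0% of all genes, and 5 were lower, against 20.2%. With shCr EVs 6 were called, against 37.3% of all genes. Again 1 was higher, against 18.4%, and 5 were lower, against 18.8%. With CrOE EVs all 8 were called, against 73.7%. Here 2 were higher, against 36.7%, and 6 were lower, against 37.0%. In that last comparison 4 members fell at least 2-fold, where 18.7% of all genes fell as far. The median log2 fold change over the 8 members was -0.30, -0.23 and -1.51 with shCon, shCr and CrOE EVs, and over all tested genes it was 0.0069, 0.020 and 0.0078.

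A second question is whether EVs from donors of unlike CRIPTO level acted differently. Between shCr and shCon EVs, 8 of 8 members were called, where 8.73% of all tested genes were called. With shCr EVs 4 were higher, against 5.22% of all genes: both plasminogen activators, Tfpi and Thbd. The 4 that were lower, against 3.51%, were Plaur, Serpine2, Serpinf1 and F3. No member reached a 2-fold difference, as 0.756% of all genes did, and the median over the members was 0.015. The count was 5 without shCon EV replicate 1, 4 without shCon EV replicate 2, 5 without shCon EV replicate 3 and 5 when these 2 groups were fitted alone. Plat, Serpinf1 and Thbd were called in this comparison under all 18 alternative settings, with adjusted p of at most 0.0147, 0.000893 and 0.00604. The members were chosen with results of these data known, so their count is a description.

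Between CrOE and shCon EVs 7 members were called, all but Serpinf1, where 72.6% of all genes were called. Between CrOE and shCr EVs 7 were called as well, all but F3, where 73.9% of all genes were called. Plat was 8.13-fold lower with CrOE than with shCon EVs and 10.98-fold lower than with shCr EVs. For Plau these values were 9.02-fold and 15.1-fold, for Serpine2 5.10-fold and 3.98-fold, and for Thbd 3.57-fold and 5.02-fold. Tfpi was 1.64-fold and 1.98-fold lower. The CrOE libraries enter both comparisons.

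To compare levels between genes, mean CPM was divided by the length in kb of the longest protein-coding transcript in GENCODE M21. On this per-length scale, Serpinf1 was the most abundant member in every group, from 180.1 ± 2.15 CPM per kb (SD, n = 3) with shCr EVs to 277 ± 3.42 with shCon EVs. Serpine2 followed in untreated cells at 178 ± 4.72 CPM per kb and F3 came next at 117 ± 7.97. With CrOE EVs, F3 took the second place at 67.1 ± 0.357 CPM per kb, and Serpine2 was at 38.4 ± 4.28. Plaur moved from 8.58 ± 0.314 CPM per kb in untreated cells to 15.9 ± 1.04 with CrOE EVs, where it stood above Plat (5.45 ± 0.467), Thbd (2.30 ± 0.0835) and Plau (0.508 ± 0.140). The submitters' notes name another build, mm39, so these lengths may differ from the models used for counting. All annotated exons of Serpine2 together cover 8287 bases, against 2210 for the transcript used. For F3 these lengths are 2527 and 1872 bases. Divided by all exons, F3 stands above Serpine2 in untreated cells too, so their order there depends on the length chosen.

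**Figure D3:**
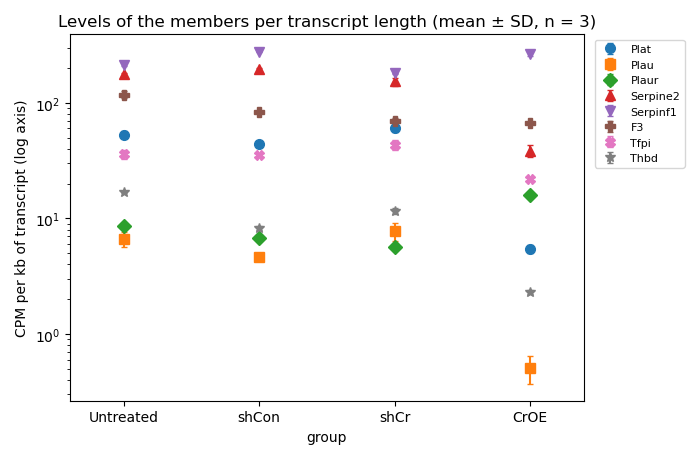
Levels of the 8 tested members in CPM per kb of transcript on a log axis, as mean ± SD of 3 libraries per group. Serpinf1 is on top in all 4 groups, and Plau lies at 0.508 CPM per kb with CrOE EVs.

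Around the members, 51 other genes of the plasminogen and coagulation systems were listed, and 27 of them passed the filter on low counts. Of the 27, 17 were called against untreated cells with shCon EVs (8 of them higher), 13 with shCr EVs (8 higher) and 25 with CrOE EVs (9 higher). Over all tested genes the shares called were 38.1%, 37.3% and 73.7%. Between shCr and shCon EVs 2 of the 27 were called, S100a10 and Ggcx, where 8.73% of all tested genes were, and neither was called when these 2 groups were fitted alone. Whether this share differs from that of the members was not tested. The median log2 fold change of the 27 was -0.061, 0.13 and -0.65 with shCon, shCr and CrOE EVs, and placing Serpind1 at its detection floor with CrOE EVs gave the same medians. Genes not tested included Plg, which encodes plasminogen, and those of factor VII, prothrombin and the fibrinogen chains, which are made mainly by the liver.

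Among plasminogen receptors and clearance receptors, 11 of 12 genes were tested. Annexin A2 (Anxa2) and S100a10, which form a complex that binds plasminogen and Plat, were called lower with all 3 kinds of EV. S100a10 went from 244 CPM in untreated cells to 120.0 with shCon EVs (a log2 fold change of -1.02, adjusted p = 4.6e-05, edgeR), 188 with shCr EVs and 66.6 with CrOE EVs, and it was higher with shCr than with shCon EVs (0.65, adjusted p = 0.00736). The latter call was lost when these 2 groups were fitted alone (0.0573). The call of S100a10 for shCr EVs against untreated cells (log2 fold change -0.38, adjusted p = 0.0335) was lost in the same way (0.113), and without untreated replicate 1 (0.111), untreated replicate 3 (0.0666), shCr EV replicate 2 (0.126) or shCr EV replicate 3 (0.126). Anxa2 went from 775 CPM to 539, 518 and 401. Lrp1, the endocytic receptor that clears complexes of protease and serpin, rose from 1256 to 1759 CPM with shCon EVs and fell to 417 with CrOE EVs (log2 fold change -2.08 for CrOE against shCon EVs, adjusted p = 6.6e-09). Mrc2, a collagen receptor that associates with the urokinase receptor, was at 240 CPM in untreated cells, 362 with shCon EVs, 345 with shCr EVs and 38.1 with CrOE EVs (log2 fold change -2.65 against untreated cells, adjusted p = 4.06e-12). Vldlr, another clearance receptor, rose in all 3 EV groups, from 31.7 to 69.9, 64.8 and 76.5 CPM.

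Among coagulation genes, 11 of 24 were tested. Pros1, which encodes the anticoagulant protein S, fell from 206 CPM to 125, 134 and 32.6 with shCon, shCr and CrOE EVs (log2 fold changes -0.72, -0.62 and -2.66, adjusted p = 1.95e-05, 5.63e-05 and 1.73e-11, edgeR). Procr, the endothelial protein C receptor and a partner of Thbd in protein C activation, was at 23.5 CPM in untreated cells, 19.7 with shCon EVs, 21.2 with shCr EVs and 44.1 with CrOE EVs. It was lower with shCon EVs than in untreated cells (log2 fold change -0.26, adjusted p = 0.00439) and higher with CrOE EVs (0.91, adjusted p = 1.06e-08). With CrOE EVs it was also higher than with shCon EVs (1.16) and shCr EVs (1.06). Vwf, which encodes a platelet-binding protein of endothelial cells and is also in the endothelial marker list, rose from 1.82 CPM to 4.58, 3.84 and 16.0. Ggcx, the carboxylase of vitamin K-dependent factors, was lower with shCr than with shCon EVs (log2 fold change -0.22, adjusted p = 0.019). This call was lost when these 2 groups were fitted alone (0.0937), without a low-count filter (0.0517), and without shCon EV replicate 2 (0.0854) or shCon EV replicate 3 (0.0871). Of 4 protease-activated receptors only F2r, the thrombin receptor PAR-1, was tested, and it rose from 112 CPM to 132, 130 and 166 with shCon, shCr and CrOE EVs. Of 11 other inhibitors and contact factors 4 were tested. All 4 were called against untreated cells with CrOE EVs (1 higher and 3 lower), where 73.7% of all tested genes were. By edgeR 0 of the 4 were called with shCon EVs, with shCr EVs, or between these 2. DESeq2 also called 0 in each, and the unadjusted p of edgeR was under 0.05 for 1, 0 and 1 of them.

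**Figure D4:**
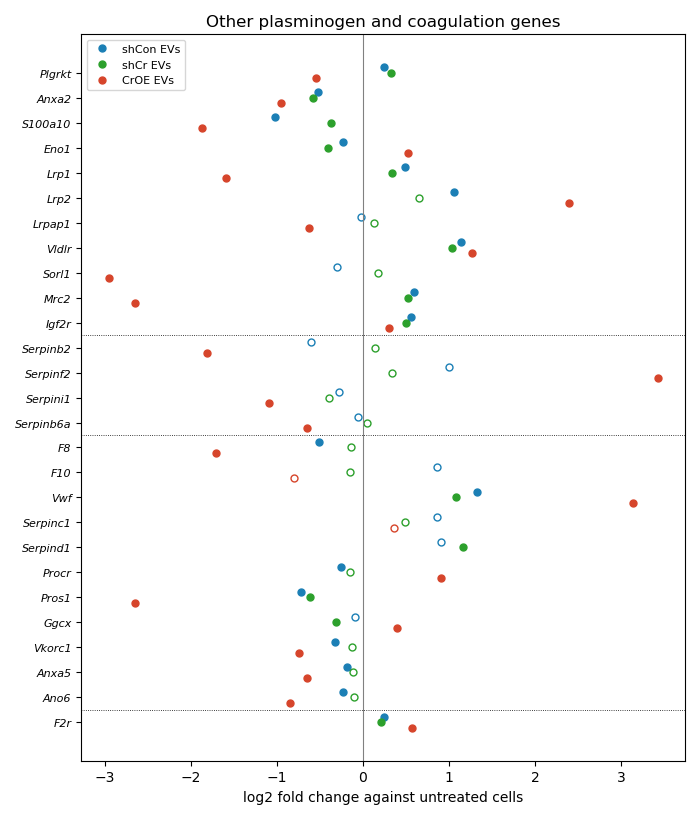
Log2 fold changes against untreated cells of the 27 tested plasminogen and coagulation genes outside the members, with filled points for an adjusted p under 0.05 and open points otherwise. Dotted lines part receptors and clearance, other inhibitors, coagulation genes and the protease-activated receptor, and the point of Serpind1 with CrOE EVs is left out because its CrOE libraries were at the detection floor. Vldlr and Vwf lie to the right for all 3 EV groups, and Pros1 to the left.

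Over the 12 libraries 5 of the 8 members, Plat, Plau, Serpine2, Tfpi and Thbd, were correlated, and all 5 were lowest with CrOE EVs. Pearson's r of log2 CPM ran from 0.873 to 0.994 over their 10 pairs, with Plat and Plau the closest pair. These 5 were grouped by their correlations, so this range describes the choice. Among the other groups these 5 did not move alike. With shCr against shCon EVs, Serpine2 was lower (log2 fold change -0.36), while Plat, Plau, Tfpi and Thbd were higher (0.43, 0.74, 0.28 and 0.49). Plaur had a negative r with each of the 5, from -0.956 with Tfpi to -0.791 with Thbd. With shCon EVs against untreated cells, however, Plaur fell, as did Plat, Plau and Thbd. F3 had r of 0.506 and Serpinf1 of -0.556 with Plat. The genes closest to each member by Pearson's r of log2 CPM over these libraries were taken from the 11402 genes whose log2 CPM averaged at least 1, and all of these values share the differences between the groups. Plat was closest to BC029722 (r = 0.999) and Thbs2 (0.999), and 2166 genes had an r above 0.9 with it. For Plau they were Grcc10 (0.996) and Ces1g (0.996), for Serpine2 Cxcl12 (0.998) and Sorbs2 (0.996), for Thbd Ccnd1 (0.999) and Gm2115 (0.999), and for Tfpi Cyb5a (0.992) and Cetn2 (0.991). With Plau, Serpine2, Thbd and Tfpi, 2087, 1956, 1657 and 1539 genes had an r above 0.9. Plaur was closest to Mcm2 (0.997) and Srsf7 (0.996). F3, which fell in all EV groups, was closest to Tagln (0.980) and Exoc3l4 (0.978), and 118 genes had an r above 0.9 with it. Serpinf1 had 4 such genes, led by Myo7a (0.950) and Pde7a (0.911).

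Sequence shared with other annotated genes was looked for, since it could move counts between genes. In GENCODE M21 no exon of a member overlaps an exon of another gene, on either strand. The share of 31-base stretches that also occur in transcripts of other genes was 1.39% for Serpine2, 0.466% for Plau and at most 0.255% for the other members.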

How the data were processed

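Estimated counts, 1 row per gene symbol and 1 column per library, are what the authors deposited, and they carry no scaling between libraries. The submitters' processing notes name featureCounts and the build mm39, and the labels' protocols describe directional libraries of poly(A)-selected RNA. The aligner, annotation, strand setting and handling of multi-mapped reads are not given in the sources used here. Values were read as estimated counts because 23.3% were more than 0.01 from a whole number, and they were rounded. In 27 rows the symbol had become a date, and these rows held at most 0.259% of a library's counts.

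Genes were kept by filterByExpr (14279 genes). All 12 libraries were fitted in 1 model with TMM scaling and tested with edgeR 4.0.16 (R 4.3.3, glmQLFit and glmQLFTest). P-values were adjusted by Benjamini-Hochberg over all tested genes, and a call is an adjusted p under 0.05. SE and 95% intervals come from the F statistic. The model was also run on simulated data, in which fewer genes changed than were called here, and in 1 group only. That run is no check of the smaller fold changes. Alternatives were DESeq2 1.42.0, median-of-ratios size factors, no filter, at least 10 counts in every library, a replicate block, only the 2 groups compared, and each library left out. Intervals of fold changes include the spread between libraries, and detection floors (3 counts) cover counting error only.

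Members and lists were chosen with earlier results of these data known. All members are named. Other pathway genes are named, per pair of groups, for the 2 largest rises and the 2 largest falls among calls without overlap whose log2 CPM averaged at least 1. Likeness names the 2 genes of highest correlation per member. F2r, Serpind1, the genes not tested and the markers singled out were chosen after their values were seen. Log2 CPM for likeness used a prior count of 2. Transcripts came from GENCODE M21.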

Additional observations from a re-analysis of the deposited data

How the results depend on the processing

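In total 48 tests of a member in a pair of groups were each repeated under 18 alternatives. Of these 864 repeats, 810 kept direction and side of the threshold, 45 lost a call, 5 gained one and 4 changed sign. The changes of sign were all of Tfpi with shCon EVs against untreated cells, a value near 0 that was no call in any setting: 3.85e-05 with the replicate block, 0.040 without untreated replicate 1, 0.019 without untreated replicate 3 and 0.0092 without shCon EV replicate 1. Over the 12 fits that left out 1 library, this value ran from -0.075 to 0.040. The count of members called between shCr and shCon EVs was 5 in a model of only these 2 groups, and 4 to 8 when 1 library was left out. The count of other pathway genes called in that comparison was 2, against 1 without a low-count filter, 0 in a model of only these 2 groups and 1 to 3 when 1 library was left out. All other counts stayed within 1.5 times their value. No clear sign was seen that replicate numbers pair the libraries, though so few libraries per group cannot exclude it. Deviations from group means correlated at -0.20 to 0.32 for equal numbers and at -0.36 to 0.35 for unequal ones. Of the 12 libraries, 5 were closest to a library of the same number. With the replicate block, the calls of Serpine2 for shCr EVs against untreated cells (adjusted p = 0.0547, edgeR) and of Plaur for shCr against shCon EVs (0.0545) were lost. Plau had 26 to 50 counts in a CrOE library and the largest biological coefficient of variation of the tested members (12.7%).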

Other observations

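Ratios between members within a library, on the scale of CPM per kb of transcript, were looked at after the levels had been seen and were not tested. They are ratios of transcripts and not of protein or activity. Their size depends on the transcript lengths used, so whether a ratio lies above or below 1 can depend on that choice. The ratio of Serpine2 to the sum of its targets Plau and Plat was 2.84 to 3.11 in untreated libraries, 3.96 to 4.02 with shCon EVs, 2.23 to 2.28 with shCr EVs and 6.36 to 6.49 with CrOE EVs. No 2 groups overlapped, so the inhibitor transcript was highest relative to both activators in the group where all 3 transcripts had fallen. The ratio of Plau to its receptor Plaur was 0.668 to 0.844 in untreated libraries, 0.662 to 0.696 with shCon EVs, 1.04 to 1.67 with shCr EVs and 0.0233 to 0.0400 with CrOE EVs. The ratio of F3 to Tfpi was 2.93 to 3.82 in untreated libraries, 2.31 to 2.37 with shCon EVs, 1.55 to 1.72 with shCr EVs and 2.99 to 3.14 with CrOE EVs. The CrOE libraries thus lay within the untreated range for this last ratio, while both of its transcripts were lower than in untreated cells.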
